A study of Mus musculus with 18 samples.

Results

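The genes of Toll-like receptor and NF-κB signaling were examined in the kidney cortex of 5 mouse strains after challenge with anti-GBM antibodies, which bind the glomerular basement membrane (GBM) and cause nephritis. The genes were chosen by symbol from the array table of B6 and NZW: Toll-like receptors (Tlr), Nod1, Nod2, the TNF receptor-associated factors (Traf), Irak kinases, Myd88, Ripk1, Ripk2, the Map3k kinases, symbols starting with Ikbk or Nfkb, and Rel, Rela, and Relb, with genes whose symbols start in the same way. The rule itself used symbols and no measured value, but it was chosen with earlier results of these data known. It gave 63 of the 34509 gene symbols of that table, read by 103 of its 46643 probes: 19 probes of receptors, 16 of adaptors, 41 of kinases, 6 of NF-κB subunits, 6 of inhibitors, and 15 of other genes caught by their symbols.

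Inflammatory signals reach NF-κB through a relay. Toll-like receptors and the cytosolic Nod receptors recognize microbial products and molecules of damaged cells. Myd88 couples most Toll-like receptors to Irak kinases and to Traf6, which activates Map3k7, and Map3k7 switches on the IκB kinase complex of Ikbkb and its regulatory subunit Ikbkg. The kinase marks the IκB proteins (among them Nfkbia and Nfkbib) for destruction and so frees the Rel family dimers to enter the nucleus. A slower branch runs from Map3k14 to the processing of Nfkb2, the partner of Relb. In the kidney, both resident cells and infiltrating leukocytes use these pathways.

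RNA came from 15 mice aged 2 months, with 3 mice in each strain. B6 and BALB/c are labelled resistant to anti-GBM nephritis, and DBA1, 129/svj, and NZW sensitive. All mice had received the antibodies and none was unchallenged, so a strain's level without nephritis and its response to the antibodies cannot be told apart. The strains are whole inbred backgrounds that differ at many genes. The arrays were deposited as 2 tables, one of B6 and NZW and the other of BALB/c, DBA1, and 129/svj, so strains were compared within a table. Of the 103 probes, 34 (28 genes) had 1 row of their own in the other table, 28 shared a search key with other probes and led to 12 rows there, and 41 had no row there and were read in B6 and NZW only.

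Arrays of B6 and NZW had a median signal of 81.1 to 89.8 and those of the other strains one of 118 to 152. Per array, 30.5% to 36.4% of probes were detected, meaning that their signal had a p-value of 0.05 or less against the negative control beads. Most probes of the arrays were therefore near the background. Kidney marker genes were read: 11 of 14 probes of proximal tubule markers and 6 of 8 probes of podocyte markers passed the filter in B6 and NZW. So did 6 of 7 probes of thick limb and collecting duct markers. These counts cannot tell cortex from whole kidney, and the label of cortex was taken as given. Values are log2 intensities, on 2 scales. For the 34 paired probes both tables were normalized together (joint scale), and a paired probe was tested if at least 3 of the 15 mice detected it. For all 103 probes the table of B6 and NZW was also normalized on its own (B6 and NZW scale), where a probe detected in at least 3 of 6 mice was tested. Differences were called at an adjusted p under 0.05 in limma over all probes tested.

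The NF-κB binding motif gives these genes a sequence of their own to inspect, since several of them are known targets of NF-κB. RefSeq promoter windows of GRCm38.p6 (250 bases before to 50 bases after a gene's start) were at hand for 50 of the 63 genes. A match to the kappaB consensus on either strand lay in a window of 9 of the 50 genes (18%), against 9.6% of all 27025 genes with a window. The genes with a consensus match were Nfkb2, Nfkbia, Nfkbie, Rel, Tlr2, Tlr3, Irak1, Map3k7, and Traf3. The windows below are shown because the subunit and the inhibitors they belong to gave differences between strains. Capitals mark the consensus matches, which are matches of letters and not binding sites. The shown window of Nfkb2 lies at chr19:46304487-46304786 (plus strand), that of Nfkbia at chr12:55492598-55492897 (minus strand), and that of Nfkbib, in which the consensus had no match, at chr7:28766595-28766894 (minus strand). Other windows of Nfkb2, starting at 46305445 and 46305680, also held consensus matches and are not shown.
Nfkb2: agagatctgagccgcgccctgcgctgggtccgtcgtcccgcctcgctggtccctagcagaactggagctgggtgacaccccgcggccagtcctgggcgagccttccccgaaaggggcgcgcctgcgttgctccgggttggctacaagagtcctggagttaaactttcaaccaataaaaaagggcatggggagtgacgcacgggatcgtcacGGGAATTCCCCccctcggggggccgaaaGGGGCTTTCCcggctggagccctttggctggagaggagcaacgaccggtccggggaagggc
Nfkbia: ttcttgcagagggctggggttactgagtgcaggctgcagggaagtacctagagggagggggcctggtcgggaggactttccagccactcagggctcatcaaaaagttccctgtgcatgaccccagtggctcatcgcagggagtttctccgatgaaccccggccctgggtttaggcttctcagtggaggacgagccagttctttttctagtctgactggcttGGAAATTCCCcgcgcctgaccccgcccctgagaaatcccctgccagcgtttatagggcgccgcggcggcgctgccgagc
Nfkbib: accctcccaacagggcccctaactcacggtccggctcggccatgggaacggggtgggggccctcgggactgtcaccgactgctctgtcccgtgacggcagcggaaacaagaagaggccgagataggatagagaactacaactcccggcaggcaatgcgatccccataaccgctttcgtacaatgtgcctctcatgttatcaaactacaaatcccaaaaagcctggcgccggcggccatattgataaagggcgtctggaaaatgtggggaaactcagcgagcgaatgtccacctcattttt
The first matches in the shown Nfkb2 window start at bases -39 and -38 from the start site and overlap, and the third starts at -11. The match of Nfkbia starts at -29.

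Most Toll-like receptors were at or near the background in B6 and NZW, and the receptor that differed most clearly was Tlr12, higher in NZW. Of the 19 receptor probes, 9 passed the filter, 3 were detected in all 6 mice, and 8 in none. Of the 9 tested, 2 were called, Tlr12 and Tlr11, both lower in B6, where 18.8% of all probes tested in these strains were called. Tlr12 and Tlr11 are receptors that in mice recognize profilin of protozoan parasites. On the B6 and NZW scale, Tlr12 (ILMN_2714500, chromosome 4) was at 6.15, 6.12, and 6.21 in the NZW mice and at 5.55, 4.94, and 5.11 in the B6 mice. All NZW mice lay above all B6 mice, and the probe was detected in 3 of 3 NZW mice but in 1 of 3 B6 mice. The difference, B6 minus NZW, was -0.96 (SE 0.16, adjusted p = 0.0035). The B6 values were largely background levels, so no fold is given. The call was lost in 1 of 8 alternative settings and kept in the 6 fits that left out 1 mouse.

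Tlr11 (ILMN_2605068, chromosome 14) was at 5.60, 5.50, and 5.63 in NZW and at 5.17, 5.09, and 5.30 in B6. It was detected in every NZW mouse and in no B6 mouse, so its level in B6 is only a bound, the array's lowest detected signal or the probe's own value where that is higher. With this bound, the mean of Tlr11 was at least 1.22-fold higher in NZW (measured means 5.57 and 5.19, adjusted p = 0.037). That fold leaves out the spread between mice, and the measured difference had a 95% interval of -0.63 to -0.14. The call was lost without any single B6 mouse (adjusted p 0.055 to 0.16), and without any single NZW mouse the probe did not pass the filter, which it had passed through the NZW mice alone. It was also lost with a normexp offset of 50 (adjusted p = 0.11), without background correction (0.097), with the limma trend (0.07), with the mouse number as a block (0.072), and in the adjusted methods' t-test (0.051). Since the NZW mice alone took Tlr11 past the filter, its passing the test is no separate support for the difference.

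The receptors best known in renal inflammation did not pass the test. Tlr2, which recognizes bacterial lipoproteins, was at 8.06, 8.04, and 7.85 in B6 and at 7.96, 7.68, and 7.86 in NZW (difference 0.15, 95% interval -0.12 to 0.42, adjusted p = 0.43). Tlr4, the receptor of lipopolysaccharide, had 3 probes. ILMN_2752966 differed by 0.22 (interval -0.07 to 0.52), ILMN_2684234 by -0.02 (interval -0.31 to 0.27), and ILMN_2690004 was detected in no mouse. These intervals do not show equal levels.

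Nod1, the sensor of a peptidoglycan fragment, was at 8.45, 8.81, and 8.54 in B6 and at 8.25, 8.54, and 8.22 in NZW (difference 0.27, interval -0.05 to 0.58, adjusted p = 0.23). The groups overlapped, since the highest NZW mouse matched the middle B6 mouse. Tlr6, Tlr7, and Tlr13 had tested probes with differences of 0.03, 0.13, and 0.05. Tlr1, Tlr3, Tlr8, both Tlr9 probes, and 1 probe each of Nod2, Tlr4, and Tlr6 were detected in none of the 6 mice, which says only that these probes did not rise above the background. Tlr5 was detected in 2 of 3 B6 mice and no NZW mouse and was not tested.

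**Figure D1:**
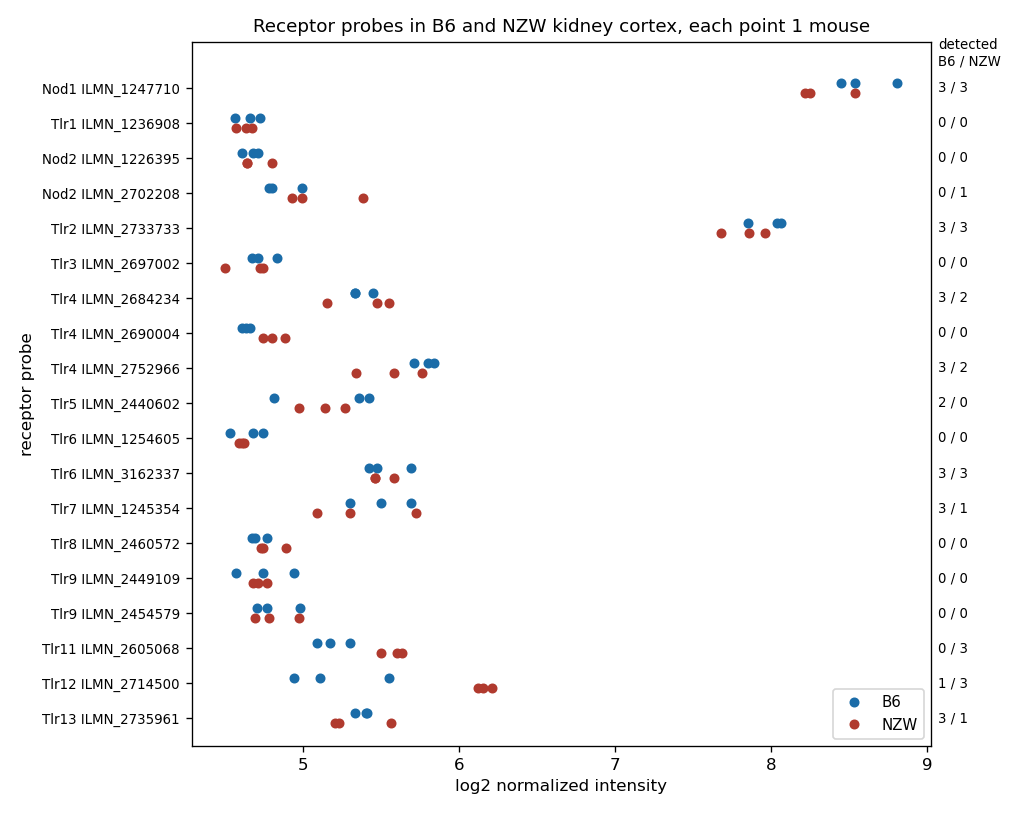
The log2 normalized intensity (x axis, B6 and NZW scale) of the 19 receptor probes (y axis) in each of 3 B6 and 3 NZW mice. The counts at the right give the mice in which a probe was detected, and Tlr11 and Tlr12 are the probes whose 3 NZW mice all lie above the 3 B6 mice and which passed the test.

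In the other table, Tlr4 was the receptor that could be tested, through 1 row of a search key shared by its probes. On that table's own scale it was at 6.41, 5.63, and 6.72 in BALB/c, at 5.60, 5.62, and 5.18 in DBA1, and at 6.04, 5.36, and 5.75 in 129/svj. Each BALB/c value exceeded each DBA1 value, by as little as 0.01 for the closest pair, and 129/svj overlapped both. The row was detected in 2 mice each of BALB/c and 129/svj and in no DBA1 mouse, whose values are background levels. The difference of BALB/c from DBA1 was 0.79 (SE 0.28, adjusted p = 0.16) and that from the mean of both sensitive strains was 0.66 (adjusted p = 0.17), neither past the threshold. Tlr5, Tlr6, and Tlr8 had paired probes, and Tlr5 was detected in 2 of the 15 mice and Tlr6 and Tlr8 in none.

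Among the adaptors, Traf1 gave the clearest difference, higher in B6 than in NZW, whereas its measured BALB/c values lay lower than those of DBA1. Traf1 binds Traf2 and TNF family receptors and is itself a known target of NF-κB. On the joint scale, its probe ILMN_1253947 was at 6.78, 6.73, and 6.68 in B6 and at 5.42, 5.44, and 5.78 in NZW. It was at 6.13, 5.60, and 5.53 in BALB/c, at 6.17, 6.51, and 6.40 in DBA1, and at 5.94, 6.21, and 6.10 in 129/svj. B6 lay above NZW without overlap, whereas BALB/c lay below DBA1 without overlap and overlapped 129/svj in 1 mouse. The probe was detected in every mouse of B6, DBA1, and 129/svj, in 2 NZW mice, and in 1 BALB/c mouse.

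Traf1 was 2.27-fold higher in B6 than in NZW (log2 difference 1.18, SE 0.17, adjusted p = 0.00016). It was lower in BALB/c than in DBA1 (-0.61, SE 0.17, adjusted p = 0.031). The BALB/c values were largely background levels, so no fold is given. The call was lost without BALB/c mouse 2 or 3 or DBA1 mouse 2 or 3 (adjusted p 0.066 to 0.12). Against the mean of DBA1 and 129/svj the BALB/c difference was -0.47 (adjusted p = 0.054). The test of the difference between the 2 within-table differences gave -1.65 (SE 0.22, adjusted p = 1e-04). Traf1 was the 1 paired member of 18 past the threshold in that test, where 10.3% of all 6896 tested probes were called.

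A second Traf1 probe, ILMN_1230586, did not show the pattern: it was at 5.43 to 5.52 in B6 and at 5.58 to 5.66 in NZW (difference -0.13, adjusted p = 0.85). It was detected in all 6 of these mice but in 2 of the 9 mice of the other table. The probes of Traf1 thus disagreed, and the sequences of the probes were not used here.

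The other adaptors differed less. Myd88 (ILMN_2774646) was at 5.82, 5.64, and 5.14 in B6, 5.82, 5.93, and 5.29 in NZW, 6.14, 6.60, and 5.94 in BALB/c, 6.36, 6.73, and 6.32 in DBA1, and 6.51, 6.39, and 6.74 in 129/svj on the joint scale. The strains overlapped within each table, with a B6 minus NZW difference of -0.15 (SE 0.22, adjusted p = 0.81) and a BALB/c difference from the other 2 strains of -0.28 (SE 0.19, adjusted p = 0.43). Traf4, an adaptor known mainly for roles outside NF-κB signaling, had 3 tested probes on the B6 and NZW scale. Its probe ILMN_2503004 was at 6.43, 6.51, and 6.30 in B6 and at 6.86, 6.77, and 6.92 in NZW, with no overlap (difference -0.44, SE 0.11, adjusted p = 0.023).

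The other Traf4 probes differed by -0.28 (ILMN_2472444, adjusted p = 0.10) and 0.11 (ILMN_1219701, adjusted p = 0.70). The call of Traf4 was lost in 5 of the 6 fits that left out 1 mouse, all but the one without NZW mouse 2 (adjusted p 0.052 to 0.091). Traf6, the ubiquitin ligase downstream of the Irak kinases, had 3 tested probes with differences of -0.25, -0.39, and -0.41 (adjusted p 0.14 to 0.16). In the other table the paired Traf6 probe was detected in no mouse. Traf3, which restrains Map3k14, was at 6.83, 6.86, and 7.69 in BALB/c and at 7.26 to 7.82 in DBA1 and 7.30 to 7.74 in 129/svj (joint scale, difference -0.42, SE 0.19, adjusted p = 0.19).

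Ripk2, the kinase and adaptor of the Nod receptors, differed by 0.04 between B6 and NZW (ILMN_2634970, adjusted p = 0.87). In the other table its row stood at 5.96, 5.82, and 5.93 in BALB/c, 5.28, 5.32, and 5.44 in DBA1, and 5.95, 5.36, and 5.85 in 129/svj. It was detected in 3 BALB/c mice, no DBA1 mouse, and 2 mice of 129/svj. BALB/c exceeded DBA1 without overlap, a difference of 0.56 from a background level (SE 0.17, adjusted p = 0.093) that did not pass the threshold.

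On the B6 and NZW scale 25 of 41 kinase probes passed the filter, with 1 called higher and 1 lower in B6 (18.8% of all tested probes were called), and their median difference was -0.12. Map3k12, a kinase of the JNK pathway best known from neurons, was higher in B6 (ILMN_2725370: 7.81, 7.84, and 8.02 in B6, and 7.52, 7.42, and 7.36 in NZW). The difference was 0.46 (SE 0.11, adjusted p = 0.021), and it was lost without B6 mouse 2 or 3 or without NZW mouse 3 (adjusted p 0.062 to 0.085).

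Map3k10, a mixed lineage kinase that acts upstream of JNK, was called over both tables together but in neither alone on the joint scale. On the joint scale the probe ILMN_1228169 was at 7.16, 6.91, and 6.91 in B6, 7.37, 7.55, and 7.42 in NZW, 6.28, 6.10, and 6.65 in BALB/c, 6.84, 6.58, and 6.69 in DBA1, and 6.36, 6.58, and 7.10 in 129/svj. B6 lay below NZW without overlap, and BALB/c overlapped both DBA1 and 129/svj. The differences were -0.46 for B6 against NZW (adjusted p = 0.15) and -0.35 for BALB/c against the others (adjusted p = 0.20). Their mean, resistant minus sensitive, was -0.40 (SE 0.12, adjusted p = 0.042), and it did not pass with strain as a random block (adjusted p = 0.22). It was lost in 9 of the 15 fits that left out 1 mouse (adjusted p 0.053 to 0.12), those without any 1 of the B6 or NZW mice, BALB/c mouse 1 or 2, or DBA1 mouse 1. On the B6 and NZW scale the same probe was at -0.43 (adjusted p = 0.036), a call lost in 5 of the 6 fits that left out 1 mouse, all but the one without B6 mouse 1 (adjusted p 0.056 to 0.14). Another Map3k10 probe tested in B6 and NZW, ILMN_2767808, differed by 0.01 (adjusted p = 0.96).

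The kinases at the core of the relay did not pass the test. Irak4, the first kinase bound by Myd88, was at 5.58, 5.91, and 5.36 in B6 and at 5.22, 4.76, and 5.20 in NZW (ILMN_1226783, difference 0.56, adjusted p = 0.062), detected in every B6 mouse and in no NZW mouse, so that the NZW values are background levels. Irak1 had 3 tested probes with differences of -0.20, -0.46, and -0.12 (adjusted p 0.19 to 0.66). Ikbkb, the catalytic subunit of the IκB kinase, had tested probes at -0.12 (ILMN_1237113, adjusted p = 0.60) and -0.36 (ILMN_2589557, adjusted p = 0.062).

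Ikbkg, its regulatory subunit, had tested probes at 0.02 (ILMN_2598585) and -0.38 (ILMN_2630423, adjusted p = 0.077). Map3k7 had tested probes at 0.14 and -0.27, and Ripk1, the kinase at the TNF receptor, was at -0.21 (interval -0.45 to 0.03, adjusted p = 0.22). Of these genes, Ikbkg and Map3k7 had probes whose differences ran in opposite directions. In the other table, the row of Ikbkb was at 10.68, 10.57, and 10.62 in BALB/c, 10.97, 11.05, and 11.09 in DBA1, and 10.60, 10.78, and 10.75 in 129/svj. BALB/c lay below DBA1 without overlap (difference -0.41, SE 0.12, adjusted p = 0.089), short of the threshold. The row of Irak1 differed by -0.01 in that comparison (adjusted p = 0.98).

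Of the NF-κB subunits, Nfkb2 was higher in 129/svj than in the 2 strains measured beside it. Nfkb2 encodes the precursor p100, which holds Relb back until it is processed to p52. On the joint scale, the probe ILMN_1249106 was at 5.98, 6.01, and 6.77 in 129/svj, at 5.27, 4.82, and 5.28 in BALB/c, and at 4.87, 4.85, and 5.01 in DBA1. It was detected in the 3 mice of 129/svj and in none of the other 12 mice. Against the bound that the background sets, the mean of Nfkb2 was at least 1.52-fold higher in 129/svj than in BALB/c (measured means 6.25 and 5.12, adjusted p = 0.001) and at least 1.53-fold higher than in DBA1 (mean 4.91, adjusted p = 0.00021). These folds leave out the spread between mice. It passed the filter through the 129/svj mice alone, where it is high, so leaving out any of them took it below the filter, and its passing the test is no separate support for the difference. Nfkb2 was the 1 of 18 tested paired members called in each of the comparisons of 129/svj with BALB/c and with DBA1, where 7.47% and 7.29% of all tested probes were called.

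Nfkb1, which encodes p105 and p50, had 2 probes that disagreed. On the B6 and NZW scale, ILMN_1234732 was at 8.43, 8.37, and 8.41 in B6 and at 8.03, 7.69, and 8.02 in NZW, with no overlap (difference 0.49, SE 0.12, adjusted p = 0.026). ILMN_2592476 was at 8.45, 8.57, and 8.23 in B6 and at 8.44, 8.49, and 8.72 in NZW (difference -0.13, adjusted p = 0.54). The call of the first was lost without NZW mouse 2 or any 1 of the B6 mice in 4 fits (adjusted p 0.054 to 0.087), and on the joint scale it did not pass (0.38, adjusted p = 0.13).

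Rela, the main activating subunit, was at 9.86, 9.75, and 9.74 in B6, 9.80, 9.98, and 9.99 in NZW, 10.21, 10.16, and 10.18 in BALB/c, 10.02, 10.23, and 10.25 in DBA1, and 10.05, 10.06, and 10.56 in 129/svj on the joint scale. The strains overlapped in both tables. The difference of B6 from NZW was -0.14 (adjusted p = 0.67), and that of BALB/c from the mean of DBA1 and 129/svj was -0.01 with a 95% interval of -0.27 to 0.25. Relb was read in B6 and NZW and differed by -0.14 (interval -0.44 to 0.16). Rel was detected in none of the 15 mice.

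Of the 59 probes tested in B6 and NZW, an inhibitor held the largest difference. Nfkbib encodes IκBβ, which keeps NF-κB dimers in the cytoplasm. On the joint scale Nfkbib (ILMN_1257446, chromosome 7) was at 7.22, 7.88, and 7.45 in NZW and at 5.83, 5.32, and 5.51 in B6. It was at 5.41, 5.31, and 4.88 in BALB/c, at 5.27, 5.15, and 7.20 in DBA1, and at 6.04, 5.51, and 7.12 in 129/svj. All NZW mice lay above all B6 mice. Among the other strains, mouse 3 of DBA1 and of 129/svj stood above the rest, and BALB/c overlapped DBA1 but not 129/svj.

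Nfkbib was detected in 3 NZW mice, 2 B6 mice, no BALB/c mouse, 1 DBA1 mouse, and 2 129/svj mice. It was 3.91-fold lower in B6 than in NZW (log2 difference -1.97, SE 0.46, adjusted p = 0.012). BALB/c less the average of its 2 companion strains was at -0.85 (SE 0.40, adjusted p = 0.23), which did not pass. With no BALB/c mouse above background, this value and the mean over both tables rest on a background level in BALB/c, and no fold is given for them. The mean of the 2 within-table differences was -1.41 (SE 0.31, adjusted p = 0.0063), lower in the resistant strains. The call between B6 and NZW was lost on the joint scale without NZW mouse 2 or B6 mouse 2 (adjusted p = 0.066 and 0.057), whereas with that table normalized and fitted alone the difference was -2.19 (adjusted p = 0.00015) and was called in all 6 fits that left out 1 mouse.

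Nfkbia encodes IκBα, which NF-κB itself induces. On the B6 and NZW scale it was at 5.46, 5.27, and 5.27 in B6 and at 6.24, 6.06, and 5.57 in NZW, with no overlap (ILMN_1218605, difference -0.62, SE 0.17, adjusted p = 0.038). On the joint scale the difference was -0.55 and did not pass (adjusted p = 0.20). Values in the other table ran from 5.92 to 6.43 in BALB/c, from 6.21 to 7.11 in DBA1, and from 5.83 to 6.69 in 129/svj, which overlap (BALB/c against the mean of the others -0.31, adjusted p = 0.43).

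Nfkbiz encodes IκBζ, a nuclear IκB protein that can activate a subset of NF-κB targets, and it moved the other way. It was at 8.69, 8.49, and 8.28 in B6 and at 8.10, 7.57, and 8.03 in NZW (ILMN_2755008, difference 0.58, SE 0.17, adjusted p = 0.044), with all B6 mice above all NZW mice. On the joint scale it was at 0.48 (adjusted p = 0.11). The calls of Nfkbia and Nfkbiz were each lost in 5 of 6 fits that left out 1 mouse: that of Nfkbia remained only without NZW mouse 3, and that of Nfkbiz only without NZW mouse 1 (adjusted p of the others 0.052 to 0.14). Nfkbie and Nfkbil1 had tested probes at -0.19 and -0.26 (adjusted p = 0.38 and 0.12).

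**Figure D2:**
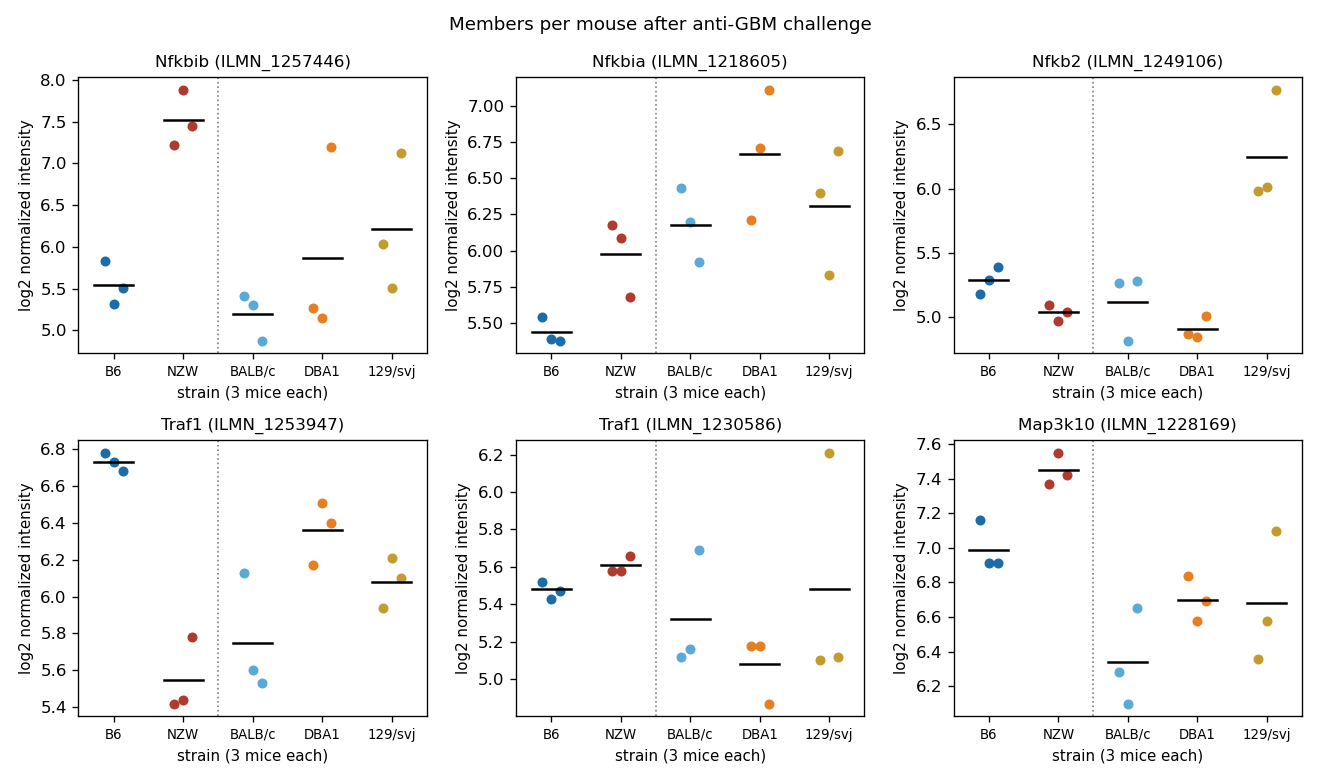
Log2 normalized intensity on the joint scale (y axis) of 6 probes in each mouse, by strain (x axis, 3 mice each), with bars at strain means and a dotted line between the 2 tables, across which levels are not compared. Nfkbib is higher in the 3 NZW mice than in B6 and, in the other table, highest in mouse 3 of DBA1 and of 129/svj, Nfkb2 is highest there in the 3 mice of 129/svj, and the 2 Traf1 probes differ in pattern.

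Among the 15 probes of genes with related symbols, 4 were tested. Map3k7ip1 and Map3k7ip2 (now Tab1 and Tab2), partners of Map3k7, differed by 0.04 and -0.04.

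Over the whole list, B6 and NZW differed at 11 of 59 tested probes (18.6%) when their table was analysed alone, 5 higher and 6 lower in B6, against 18.8% of all 16766 tested probes (9.24% higher and 9.60% lower). The share of members called was thus close to that of the arrays as a whole. The count fell to 8, 7, and 6 without NZW mouse 1, 2, or 3 and to 5, 4, and 4 without B6 mouse 1, 2, or 3. Those higher in B6 included Traf1, Nfkbiz, Nfkb1, and Map3k12, and the 6 lower were Nfkbib, Tlr12, Nfkbia, Traf4, Map3k10, and Tlr11. The median of the 59 differences was -0.12 and that of all tested probes -0.04. With scaling to the 75th percentile, which shifted the median of all probes to -0.13, 13 of 59 were called, 4 of them higher in B6. The share of all probes called was not counted with this scaling or with a mouse left out. These changed counts are therefore no result about the members. A count of 44 of the 103 probes did not pass the filter, and 36 were detected in none of the 6 mice. Of the 11 called probes, Tlr11, Nfkbib, Tlr12, and Nfkbia were detected in fewer than 3 B6 mice and Traf1 in fewer than 3 NZW mice.

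**Figure D3:**
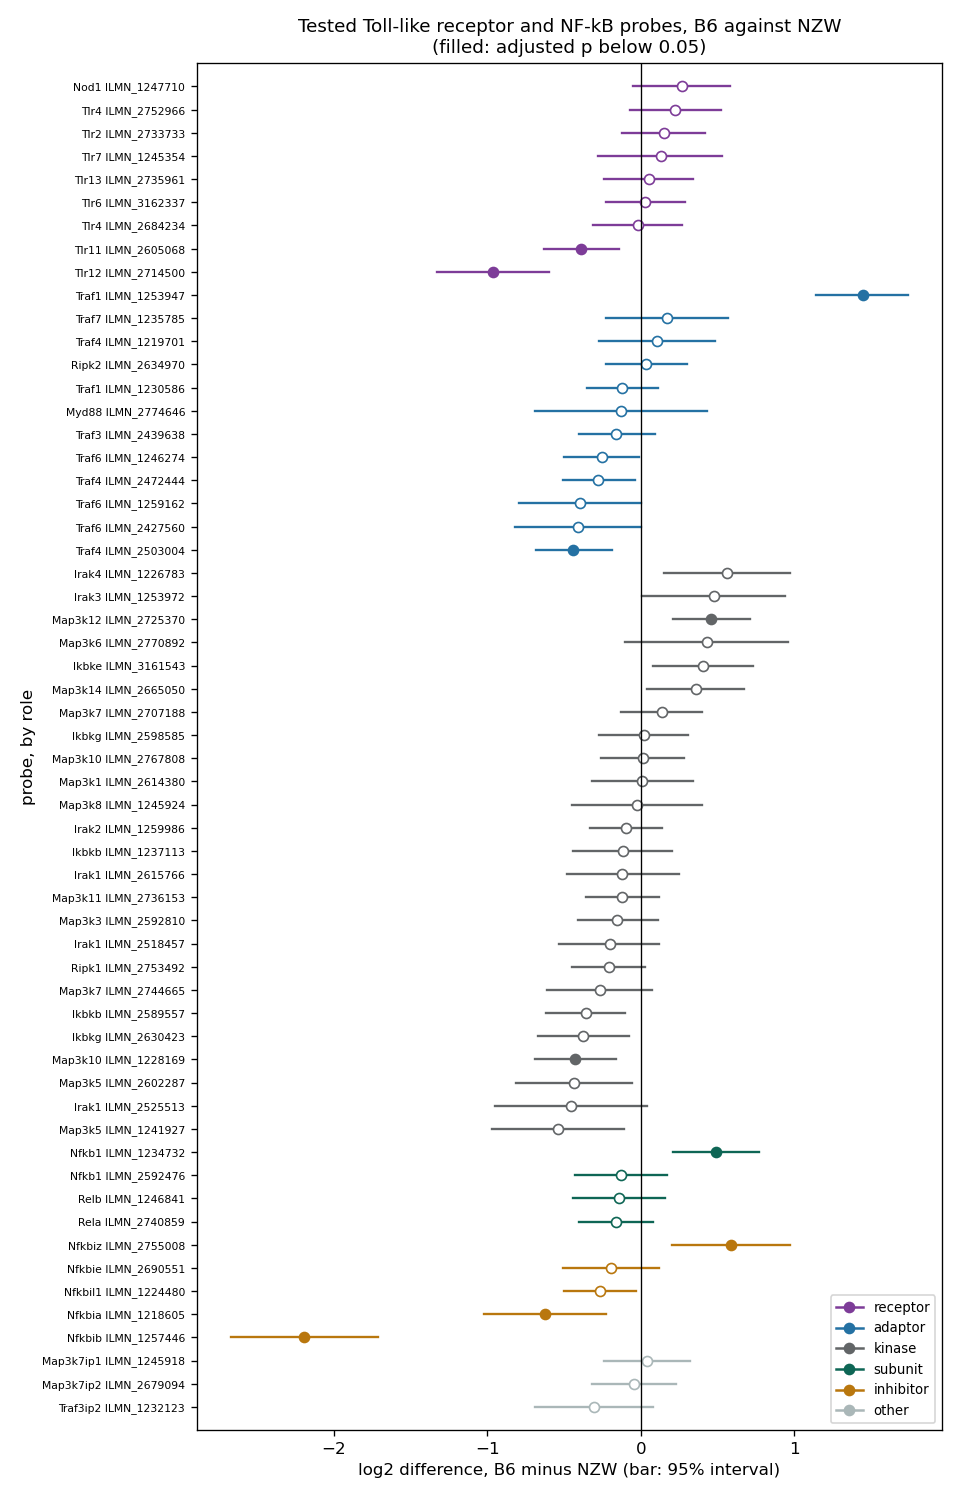
The log2 difference, B6 minus NZW, of 58 tested probes on the B6 and NZW scale (x axis, points with 95% intervals), ordered by role (y axis, colors) and size, with filled points for an adjusted p under 0.05. The 10 filled points passed the test, and those farthest from 0 are Nfkbib at -2.19 and Traf1 at 1.44.

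Across both tables, 18 of the 34 paired probes passed the filter. In the comparison of resistant with sensitive strains, as the mean of the within-table differences, 3 of 18 (16.7%) were called against 12.0% of all 6896 tested probes. Nfkbib and Map3k10 were lower and Traf1 was higher in the resistant strains, where 5.45% and 6.54% of all tested probes were called lower and higher. The positive mean of Traf1 (0.36, adjusted p = 0.047) joins a positive and a negative difference and describes neither table, and its call was lost in 9 of the 15 fits that left out 1 mouse (adjusted p 0.053 to 0.12), those without NZW mouse 1 or 2, any 1 of the B6 mice, mouse 1 of BALB/c, DBA1, or 129/svj, or 129/svj mouse 3. With 2 resistant and 3 sensitive strains, these tests measure the spread between mice of a strain. With strain as a random block, none of the 3 was called by limma (adjusted p = 0.12 for Nfkbib, 0.22 for Map3k10, and 0.78 for Traf1).

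When BALB/c was set against the average of DBA1 and 129/svj, 0 of 18 members were called by limma, where 9.64% of all tested probes were. At an unadjusted p under 0.05 there were 5, and the methods' t-test gave 0 after adjustment and 2 before it. Differences below 0 were seen at 16 of the 18 probes, among them Map3k6 (-0.74, adjusted p = 0.27) and Traf1 (-0.47). The median was -0.29 against 0.00 for all tested probes, and the share of all tested probes below 0 was not counted. Of the 6 tested rows of shared keys, read on that table's own scale, 3 were below 0, with a median of 0.02. Map3k6, a stress-activated kinase, was at 7.94, 7.11, and 5.91 in BALB/c and at 7.28, 7.75, and 8.76 in DBA1, so its mice spread over more than the difference. In the comparison of B6 with NZW on the joint scale 2 of 18 (11.1%) were called, Nfkbib and Traf1, against 9.83%. In that of BALB/c with DBA1 1 of 18 was called, Traf1, against 9.44%. Of the 12 rows reached through shared keys, 6 were tested in their own table and 0 were called in limma in any of its 4 comparisons, with 3, 3, 0, and 2 at an unadjusted p under 0.05 for BALB/c against both other strains, DBA1, and 129/svj, and for DBA1 against 129/svj. All tested probes of that table were called at 5.99%, 5.75%, 4.82%, and 4.48%. These shares are at an adjusted p. The shares of all probes at an unadjusted p or in the t-test were not counted, so member counts at those thresholds cannot be judged.

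**Figure D4:**
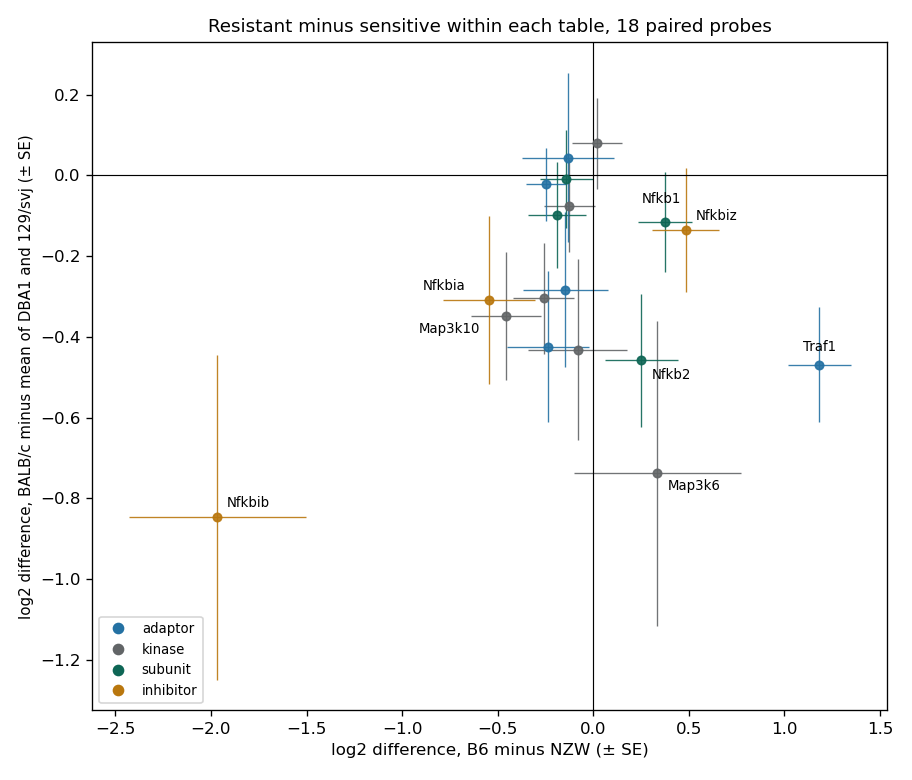
Each of the 18 tested paired probes by its difference B6 minus NZW (x axis) and its difference BALB/c minus the mean of DBA1 and 129/svj (y axis), both log2 on the joint scale with SE bars and colored by role. Nfkbib is at -1.97 and -0.85, and Traf1 is at 1.18 and -0.47.

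Pathway genes outside the symbol rule (coreceptors, ubiquitin regulators, and interferon regulatory factors) were read as a list in B6 and NZW. Of 65 probes of 35 genes, 46 were tested, with 6 higher and 4 lower in B6. The higher ones were Ly96, the coreceptor of Tlr4 (1.25, adjusted p = 7.8e-05), Tollip, an inhibitor of Irak1 (1.43, adjusted p = 0.00052), Lbp, which delivers lipopolysaccharide (1.07, adjusted p = 0.016), and 3 probes of Irf3 (0.43 to 0.54). The lower ones were Peli2 (-1.29, adjusted p = 0.0042), Jun (-0.78), Tnip1 (-0.58), and Cyld (-0.41), of which Tnip1 and Cyld restrain NF-κB signaling. The share of 10 of 46 stood beside the 18.8% of all probes.

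In the other table, Cd14, which hands lipopolysaccharide to Tlr4, was lower in BALB/c than in the average of DBA1 and 129/svj (-2.04, with an SE of 0.42 and an adjusted p = 0.0053), as was Irf7 (-1.65, SE 0.29, adjusted p = 0.0014), a factor of the interferon response. Peli1 (0.67, adjusted p = 0.028) and Sigirr, a negative regulator of Toll-like receptors (0.44, adjusted p = 0.0099), were higher in BALB/c. These were 4 of 11 tested probes, beside 9.64% of all tested probes called in this comparison. Against DBA1 alone the same 4 were called, beside 9.44% of all tested probes. Against 129/svj alone only Irf7 was called (-1.59, adjusted p = 0.0063), beside 7.47%. Cd14 also differed between the sensitive strains, higher in DBA1 than in 129/svj (1.76, adjusted p = 0.04).

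Known NF-κB target genes in B6 and NZW gave 5 of 15 tested probes higher and 2 lower in B6, beside 9.24% and 9.60% of all tested probes. Cxcl1, a neutrophil chemoattractant, differed by 1.20 (SE 0.23, adjusted p = 0.008), Lcn2 by 1.80 (adjusted p = 0.028), C3 by 1.30 (adjusted p = 0.041), Ccl5 by 0.60, and Il1b by 0.59. Csf1, the macrophage growth factor, was lower in B6 (-1.01, adjusted p = 0.017), as was Cd40 (-0.36, adjusted p = 0.045). In BALB/c against the other 2 strains 0 of 8 target probes were called in limma on the joint scale, with 1 at an unadjusted p under 0.05, beside 9.64% of all tested probes called. On the same 8 paired probes B6 against NZW also gave 0 called in limma, with 5 at an unadjusted p under 0.05, beside 9.83%. The counts out of 15 come from the B6 and NZW scale and are not comparable with the 0 of 8.

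These values come from whole cortex, in which fewer cells of a type and less RNA per cell cannot be told apart. Of 11 tested probes of macrophage markers in B6 and NZW, 1 was called, C1qb, higher in B6 (1.02, adjusted p = 0.00083), beside 9.24% of all tested probes. At an unadjusted p under 0.05 in limma there were 3, and the median difference of the list was 0.49. The summed linear intensity of the list was 3843 to 7175 in B6 and 2792 to 3545 in NZW. Neutrophil markers had 0 of 8 probes called in limma and 0 at an unadjusted p under 0.05, with sums of 1487 to 7317 in B6 and 2658 to 3731 in NZW. Lymphocyte markers had 0 of 5 called and those of the thick limb and collecting duct 0 of 6. Either list had 0 at an unadjusted p under 0.05 in limma, and endothelium markers had 0 of 8 called with 2 at that p. Of all tested probes 18.8% were called at an adjusted p, and the share at an unadjusted p was not counted. Counts of 0 in lists this short do not show equal levels. Of 4 tested tubule injury probes, that of Havcr1 was lower in B6 (-2.77, adjusted p = 0.013), beside 9.60% of all tested probes. Those of Spp1 and Lcn2 were higher (0.69 and 1.80), beside 9.24%. Of 11 proximal tubule probes, 3 (Aqp1, Cubn, and Lrp2) were lower, beside 9.60% of all tested probes. At an unadjusted p under 0.05 in limma there were 5, and the median difference of the list was -0.26. In the other table, the 2 paired macrophage probes summed to 160 to 279 in BALB/c, 405 to 662 in DBA1, and 117 to 599 in 129/svj. The 2 paired neutrophil probes summed to 199 to 419, 214 to 336, and 67 to 1257. For BALB/c against the average of DBA1 and 129/svj, 0 macrophage probes were called in limma. At an unadjusted p under 0.05 there were 2 of 2 (median difference -0.83), and 0 of the neutrophil probes. There, 1 of 5 tested proximal tubule probes was called in BALB/c against the average of the others, Lrp2 (0.63, adjusted p = 0.0082). It was higher in BALB/c, whereas it was lower in B6 than in NZW. Of 3 tested thick limb and collecting duct probes 1 was called, the channel Aqp2, also higher in BALB/c (0.91, adjusted p = 0.04). Aqp2 was not called against 129/svj alone. Of all tested probes 9.64% were called in this comparison. The part of cell composition in the differences of the members was not tested.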

How the data were processed

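RNA of the kidney cortex was hybridized to Illumina mouse BeadChips, 18 arrays of 15 mice. The authors deposited probe intensities from BeadStudio without normalization, each with a deposited detection p-value. Steps between scanner and table other than this were not given in the sources used here. Mouse 1 of BALB/c, of DBA1, and of 129/svj had 2 arrays, which were averaged. Rows were paired between the tables where a search key was unique in both (19886 pairs). Background was corrected with normexp from the detection p-values (offset 16), which compresses differences of dim probes, followed by quantile normalization and log2. Probes detected in at least 3 mice were tested with limma 3.58.1 (R 4.3.3), with 1 coefficient per strain and Benjamini-Hochberg adjustment over all tested probes. Python 3.11.15 with pandas 2.3.3 read the tables, and the fit was checked beforehand on simulated data.

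Members and gene lists were chosen with earlier results of these data known, and lists and list members therefore carry no test of their own. Members were named where they passed the threshold and, whatever their values, where they were detected probes of Tlr genes, Nod1, Nod2, Myd88, Irak1, Irak4, Traf6, Ikbkb, Ikbkg, Ripk1, Ripk2, Nfkbia, or a subunit. Other members and genes of the lists with values were named after these were seen. The reading of rows of shared keys in their own table, and of all members in the table of B6 and NZW alone with its alternatives, was also chosen after the tables had been seen. All 103 member probes had a RefSeq symbol, and 9 carried a newer one. Alternatives covered the background correction, scaling, filter, tables, blocks, variance model, the methods' t-test, and mice left out. Results of 1 called member and of 1 marker gene are not reported here. The number of arrays limits the precision.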

Additional observations from a re-analysis of the deposited data

Results flagged for a closer look

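The Traf1 probe ILMN_1253947 was called because the difference between resistant and sensitive strains was not the same in the 2 tables. BALB/c minus the mean of DBA1 and 129/svj, less B6 minus NZW, gave a log2 value of -1.65 (SE 0.22, adjusted p = 1e-04 in limma). In each of the 15 fits that left out 1 mouse it ran from -1.86 to -1.54 and was called. The called probe was detected in 1 BALB/c mouse, so the BALB/c side rests largely on background levels. The other Traf1 probe gave 0.18 (adjusted p = 0.82). The strains of the 2 tables differ as well as the tables, and these cannot be told apart. Groups held 3 mice each, too few for a search for single outlying mice.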

How the results depend on the processing

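Deviations of same-numbered mice had correlations of -0.07 to 0.01 in the table of B6 and NZW and -0.26 to 0.39 in the other. Those of differently numbered mice ran from -0.02 to 0.08 and from -0.42 to 0.40, so the numbers did not set pairs apart. The 0.39 was that of mouse 3 of DBA1 with mouse 3 of 129/svj, the mice that stood highest for Nfkbib in that table. With the replicate number as a block, the counts of members called were 7 of 59 in B6 and NZW analysed alone (main value 11), 2 of the 42 without a paired row (main value 5), and 0 for BALB/c against DBA1 (main value 1).

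Resistant against sensitive strains gave 3 members, and 1 with probes detected in every mouse, with no filter, with the limma trend, or without the repeat arrays, 0 with the adjusted methods' t-test, with strain as a random block, or in the table of BALB/c, DBA1, and 129/svj alone, and 6 in the table of B6 and NZW alone. Traf1, at 0.36, turned to -0.43 in the table of BALB/c, DBA1, and 129/svj alone (adjusted p = 0.16), by construction, since that table's own difference is negative. B6 against NZW gave 2, and 0 with probes detected in every mouse, 9 with the unadjusted t-test, and 6 with each table normalized and fitted on its own. BALB/c against DBA1 gave 1, and 0 without background correction, with 75th percentile scaling, with probes detected in every mouse, without repeat arrays, with the adjusted t-test, and with each table on its own. BALB/c against 129/svj and DBA1 against 129/svj gave 1 each, and 0 with probes detected in every mouse or the adjusted t-test, and the latter 2 with the unadjusted t-test. BALB/c against both strains gave 0, and 2 with the unadjusted t-test. The difference of differences gave 1, and 0 with probes detected in every mouse, a filter that Traf1 does not pass. Nfkbib and Nfkb2 do not pass it on the joint scale either. The counts with this filter were therefore set in advance for these members. The members without a paired row gave 5, and 8 (2 higher in B6) with 75th percentile scaling, 3 with probes detected in every mouse, 2 with the adjusted t-test, and 10 with the unadjusted one. All members in B6 and NZW alone gave 11, and 6 with probes detected in every mouse, 4 with the adjusted t-test, and 18 with the unadjusted one. Rows of shared keys gave 0, and for BALB/c against DBA1 1 with an offset of 50, without background correction, or with the trend, and 2 with either t-test, and 1 with the unadjusted t-test for BALB/c against both strains and for DBA1 against 129/svj.

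With each mouse left out, the counts ran from 1 to 4 (resistant against sensitive), 0 to 1 (BALB/c against both strains and each pairwise comparison of its table), 1 to 2 (B6 against NZW, and the difference of differences), 2 to 5 (members without a paired row), 4 to 8 (all members in B6 and NZW alone), and 0 to 1 (rows of shared keys). Apart from tables fitted on their own, the share of all probes called was not counted for the alternatives or with a mouse left out. Rises and falls of these counts are therefore no result about the members. Where no cause is named, the cause was not tested. The t-test between resistant and sensitive strains pools the tables, and for it and the random block the mean weights strains differently. For this comparison and the difference of differences, separately normalized tables were joined in 1 fit.

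Repeat arrays of a mouse differed by a median of 0.21 (log2) over the tested paired members and by up to 0.93, and the median SD between mice of a strain was 0.23. With 36 of 103 probes detected in no mouse of B6 or NZW, the signal over background limits what these arrays show, the receptors included.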
